A study of Canis lupus familiaris with 21 samples.

Results

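The spots described here are the 150 whose smallest gain over control in any of 7 dog kidney cell lines was largest, each line overexpressing a different transcription factor of the epithelial to mesenchymal transition. They were found in the deposited table of Cy5/Cy3 ratios, in which each line has 3 columns. The 3 columns of a line were averaged on the log2 scale, each spot was given the lowest of its 7 line means, and the 150 spots with the highest such value were taken from 30183 tested spots. A spot was tested if either channel was well above background on at least 3 of the 21 scanned arrays, which left out 11851 of 42034 non-control probes. The spots were thus chosen by their measured ratios in all 7 lines, so the ratios in these columns, the calls made on them and the low control signals that go with them are descriptions and carry no test.

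The cells were MDCK-II, an epithelial line from dog kidney. Per the labels, Cy5 carried RNA of MDCK-II cells overexpressing E47, Snail2, Snail1, Twist1, Twist2, Zeb1 or Zeb2, with 3 arrays for each, and Cy3 carried RNA of MDCK-II control cells with the empty pLKO vector. The growth protocol says that clones were grown in G418 or puromycin and isolated with cloning rings. The labels call the arrays biological replicates but are silent on whether these were different clones or cultures of a line, so any spread between them may be technical. All 7 lines were set against the same kind of control, with Cy5 always on the line, so a level peculiar to the control cells, or a dye effect of a probe, enters all 7 ratios and cannot be told apart from a gain shared by the lines. The extraction protocol in the labels speaks instead of tumours and of a pooled Cy3 reference.

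In the epithelial to mesenchymal transition, cells give up their junctions and polarity and become motile. Snail, Zeb and Twist proteins and E47 are DNA-binding proteins that recognise short E-box motifs, and they are best known for repressing the gene of the junction protein E-cadherin. Snail1, Snail2, Zeb1 and Zeb2 are zinc finger proteins, whereas Twist1, Twist2 and E47 belong to the basic helix-loop-helix family. MDCK cells are a common model of this change because they form a tight epithelial sheet in culture. On a 2-colour array, a ratio compares the brightness of the dyes on 1 spot, so when the control is near background the ratio depends on how the scanner software set its lowest signals.

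The spots are named by row and column of the scanner grid, so that 382/22 is grid row 382, column 22 of 532 rows and 85 columns. No gene names are given, because in all 21 files the design number of the grid differed from that of the slide. No sequence is shown for the same reason.

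The samples recorded for the scanner files conflicted with the titles of the table's columns. In 15 of the 21 files the ratios equalled a column within 1e-04 (log10) at 97.7% to 97.8% of tested spots, and in each case that column was titled for another sample. The columns were used by their titles, and channel signals were read from the 15 equal files under the title of their column. Another file lay close to a Twist2 column (r = 0.965 across spots), and the other 5 equalled none. These 5 are recorded as the 3 Snail1 arrays and Zeb2 arrays 2 and 3, and their ratios did not enter the choice of spots. No Snail1 column had an equal file, and neither had Zeb2 columns 2 and 3 or Twist2 column 3, so their log10 scale and direction were assumed. In 19 of 21 columns the nearest column across tested spots belonged to the same line. The first Zeb2 column was nearest to a Snail1 column (r = 0.59) and correlated with the other Zeb2 columns at only 0.47 and 0.49, while the first Twist1 column was nearest to a Zeb2 column (r = 0.81, against 0.72 for its own line). The table also held, for 906 spots, the ratio of another spot, and 2 of the 150 were among them. Spot 293/70 had a median log2 ratio of 2.72 in the table and -1.29 at its own place, and spot 441/58 had 2.76 and 0.74. Everything read from scanner files below therefore concerns the other 148 spots.

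The lowest line mean of the 150 spots ran from 5.60 on the log2 scale, a 48.6-fold gain, down to 1.79, a 3.46-fold gain, with a median of 2.46. These gains are deposited ratios, and at many of the spots they rest on a control near background, as given below. The 3 spots just inside the limit, 126/5, 522/48 and 24/79, all had a lowest line mean of 1.79. Just outside lay 72/64 at 1.79, 434/85 at 1.78 and 275/50 at 1.77, so the limit did not fall in a gap. Of the 150 spots, 136 were above 0 in all 21 columns, compared with 5.77% of tested spots, and 119 were above 1 in all 21, compared with 0.745%. Nothing is read from these shares, because the choice set them. Of the 3150 values of these spots, 14 lay at or below 0, each in a different spot, and 9 of the 14 fell in the first Zeb2 column. In the tested spots as a whole, 482 (1.6%) had all 7 line means above 1 and 278 had all 7 below -1.

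The gain was unequal between lines, as the plot of line means shows. The median of the 150 spots was highest in Twist1, at 4.57 on the log2 scale or 23.8-fold, and next highest in Twist2, at 4.05 or 16.5-fold. E47 followed with 3.63 (12.4-fold), then Snail1 with 3.42, Zeb2 with 3.41 (10.6-fold) and Snail2 with 3.32 (9.99-fold). Zeb1 had the lowest median, 2.94 or 7.65-fold. In the deposited ratios the basic helix-loop-helix factors thus took the first 3 places, and E47, Snail1, Zeb2 and Snail2 lay close together. This order depended on the scale of each array. With the ratios scaled to equal spread between arrays, the medians were 6.60 in Snail1, 4.94 in Zeb1, 3.92 in Twist1, 3.68 in Zeb2, 2.81 in Twist2, 2.46 in E47 and 2.45 in Snail2. Without the first Zeb2 column, which stood apart from its line, the Zeb2 median was 3.82, which puts Zeb2 above E47, and without the first Twist1 column the Twist1 median was 4.62.

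**Figure D1:**
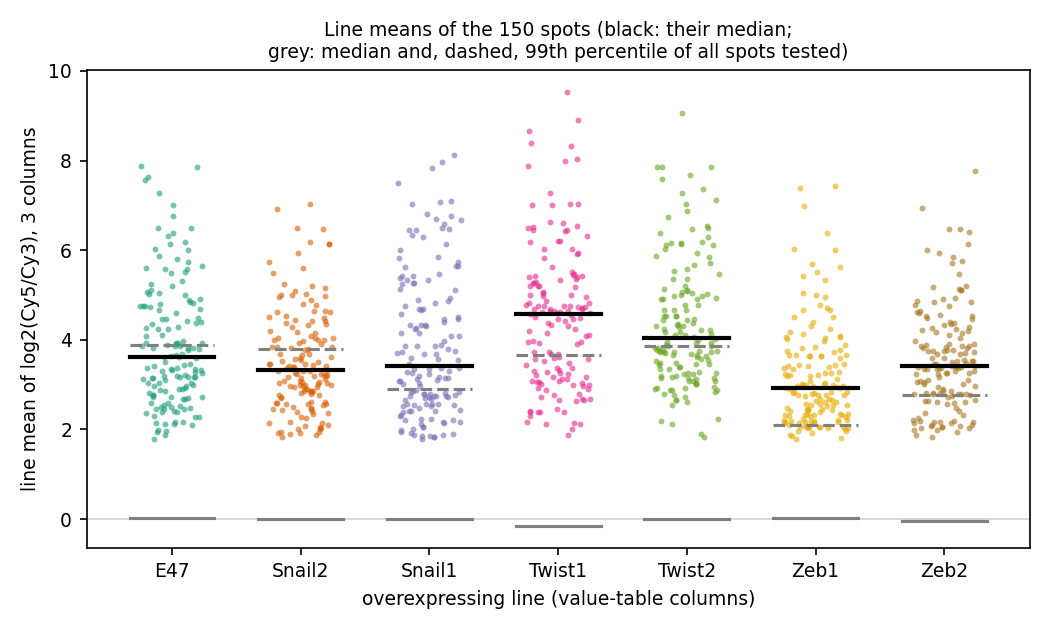
Each point is the mean log2(Cy5/Cy3) of 1 of the 150 spots over the 3 columns of a line, with black bars at their median, grey bars at the median of all tested spots and dashed bars at their 99th percentile. Medians of the 150 run from 2.94 in Zeb1 to 4.57 in Twist1, while the median of all tested spots lies between -0.16 and 0.04.

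The median of a single column ran from 2.67, in the first Snail2 column, to 4.73, in the third Twist1 column. In Snail2 the columns stood at 2.67, 3.39 and 4.0, and in Zeb2 at 2.90, 3.71 and 3.82, so the columns of both lines overlapped those of several others. E47 (3.80, 3.53 and 3.73), Snail1 (3.53, 3.40 and 3.61), Twist2 (4.21, 3.96 and 4.02) and Zeb1 (2.88, 2.89 and 3.19) were tighter. The Twist1 columns were at 4.19, 4.55 and 4.73. The median SD of a spot over its 3 columns was 0.68 in Zeb2, 0.67 in Snail2 and 0.63 in Twist1, compared with 0.33 in Zeb1, 0.31 in Snail1, 0.26 in Twist2 and 0.25 in E47.

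Slides held 4 arrays at most, and most lines lay on 1 or 2 of them, so slide and line are largely confounded. Where columns of different lines came from the same slide, the order could be read within it. On the slide with 2 Twist1 and 2 E47 columns, the medians were 4.19 and 4.55 for Twist1 and 3.80 and 3.53 for E47. On the slide with the third Twist1 column and the first and second Twist2 columns, Twist1 stood at 4.73 and Twist2 at 4.21 and 3.96. After normexp and loess this turned, with 1.81 for Twist1 and 2.38 and 2.35 for Twist2. That Twist1 array was also the dimmest of the 15 in the line channel, with a median Cy5 signal of 138 and 90.5% of the 148 spots well above background, and the part of this in its ratios was not tested. On the slide with all Zeb1 columns and the first Zeb2 column, Zeb2 stood at 2.90, within the Zeb1 range of 2.88 to 3.19. On the slide with all Snail2 columns and the third E47 column, E47 stood at 3.73, within the Snail2 range. Twist1 was therefore above E47 within a slide, also after normexp and loess (2.36 and 2.40 against 1.97 and 1.99), whereas its order against Twist2 changed with the processing. The other pairs that shared a slide overlapped. Spot by spot, all 3 Twist1 columns lay above all 3 E47 columns at 65 of the 150 spots (19.8% of tested spots) and below them at 11 (25.2%), counts that again describe the chosen spots.

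The spread of all ratios also differed between lines, which changes how far the 150 spots stood out. The 99th percentile of all tested spots was 2.10 in Zeb1, 2.77 in Zeb2 and 2.91 in Snail1, but 3.67 in Twist1, 3.79 in Snail2, 3.86 in Twist2 and 3.88 in E47. In Zeb1, the line with the smallest gain, 131 of the 150 spots were among the 302 highest tested spots. The count was 114 in Zeb2, 98 in Twist1, 94 in Snail1, 82 in Twist2, 64 in E47 and 55 in Snail2. In E47 and Snail2 the median of the 150 thus lay below the top 1% of that line.

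Zeb1 also decided the choice most often: it gave the lowest line mean for 51 of the 150 spots, Snail2 for 35, Snail1 for 26, Zeb2 for 16, E47 for 12, Twist1 for 6 and Twist2 for 4. The highest line mean came from Twist1 in 53 spots, Twist2 in 32, Snail1 in 26, E47 in 23, Snail2 in 8, Zeb2 in 5 and Zeb1 in 3. Snail1 was the lowest line for as many spots as it was the highest. The limma fit called 150 of 150 spots higher in E47 (25.9% of tested spots), Snail2 (22.9%), Twist1 (15.9%), Twist2 (23.4%), Zeb1 (5.16%) and Zeb2 (14.7%), and 149 in Snail1 (6.28%). A call needed a Benjamini-Hochberg adjusted p under 0.05 and a log2 mean of at least 1, and these counts follow from the choice. With scaling between arrays 148 to 150 spots were called in each line, and the shares of tested spots lay closer together, at 16.2% in E47, 15.7% in Snail2, 15.2% in Twist2, 14.7% in Snail1, 14% in Zeb2, 13.8% in Zeb1 and 13.2% in Twist1.

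**Figure D2:**
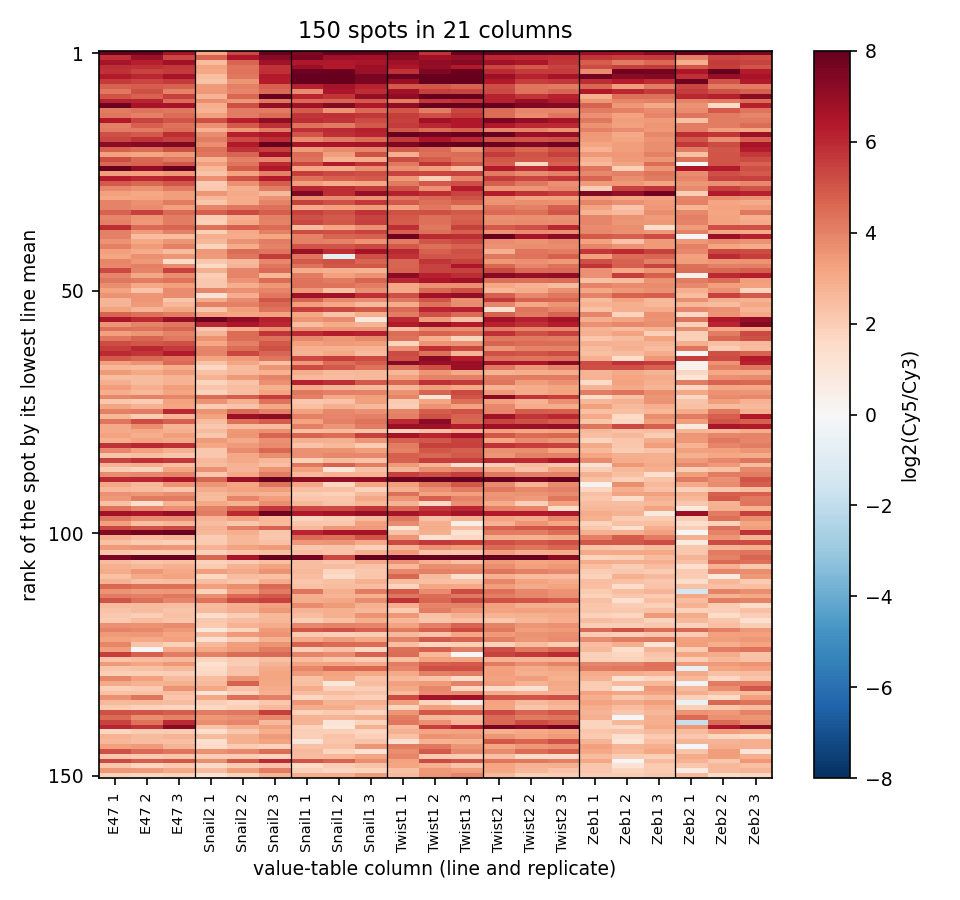
Each line of the map is 1 of the 150 spots, in order of its lowest line mean, and each column is 1 of the 21 table columns, with colour giving log2(Cy5/Cy3). Twist1 and Twist2 columns are darkest in most spots, the first Zeb2 column holds 9 of the 14 values at or below 0, and the first Snail2 column is paler than the other Snail2 columns.

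Spot 382/22 led the ranking. Its E47 columns read 8.15, 7.88 and 6.65, its Snail1 columns 7.47, 7.97 and 8.04, and its Twist1 columns 7.50, 5.81 and 8.51. The Twist2 columns gave 9.13, 8.91 and 9.11, the Zeb1 columns 6.85, 6.84 and 7.27, and the Zeb2 columns 8.11, 7.71 and 7.51. Its lowest mean came from Snail2, where the columns were 3.07, 5.26 and 8.47 (5.60 ± 2.71, SD, n = 3). Twist2 was thus the tightest and highest line for this spot, and 2 of the Snail2 columns lay below every column of the other lines. It was also the highest of the 150 spots in Twist2 (9.05 ± 0.12) and in Zeb2 (7.78 ± 0.30).

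The second spot, 281/53, varied less. Snail1 (7.57, 6.80 and 6.74) and Twist1 (7.23, 6.80 and 7.05) were highest, and Zeb2 (4.01, 5.34 and 5.19) was lowest. E47 read 5.84, 6.88 and 5.36, Snail2 4.65, 6.46 and 7.27, Twist2 6.02, 5.98 and 5.82, and Zeb1 5.71, 5.53 and 5.62. The groups of columns overlapped for most pairs of lines, although both Snail1 and Twist1 lay above all Zeb1, Zeb2 and Twist2 columns. Without the first Zeb2 column its lowest line mean was 5.27.

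Next came spot 475/1, with a lowest mean of 4.51 ± 0.37 in Zeb1 (4.87, 4.13 and 4.55) and a highest of 7.03 ± 0.28 in Twist1 (6.72, 7.11 and 7.26), and these did not overlap. Spot 56/75 was led by Snail1 (6.84, 6.37 and 6.83) and was lowest in Snail2 (3.23, 4.31 and 5.77), again without overlap. At spot 450/76 Zeb1 was split, with 3.77 in the first column and 7.72 and 7.66 in the others, while Snail1 read 7.76, 7.83 and 6.90. Spot 100/57 had the highest Zeb1 mean of all (7.43 ± 0.27) and stood at 8.91 ± 0.98 in Twist1 (7.83, 9.13 and 9.76).

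The lowest line for 100/57 was Snail2, with 2.44, 4.24 and 6.36. Spot 526/73 had the highest Snail1 mean of the 150 (8.49, 8.30 and 7.56), and its Snail2 columns read 2.27, 3.55 and 6.30. Spots 521/33 and 519/33 lie 2 grid rows apart in the same grid column. In the first of them Snail1 was highest (6.18, 6.67 and 6.15), and in the other Zeb1 was highest (6.43, 6.04 and 5.59), so they did not share a pattern. The tenth spot, 121/59, held the highest value in this group, 10.14 in the third Twist1 column, and had its lowest mean in Zeb1 (2.82, 4.40 and 4.44).

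**Figure D3:**
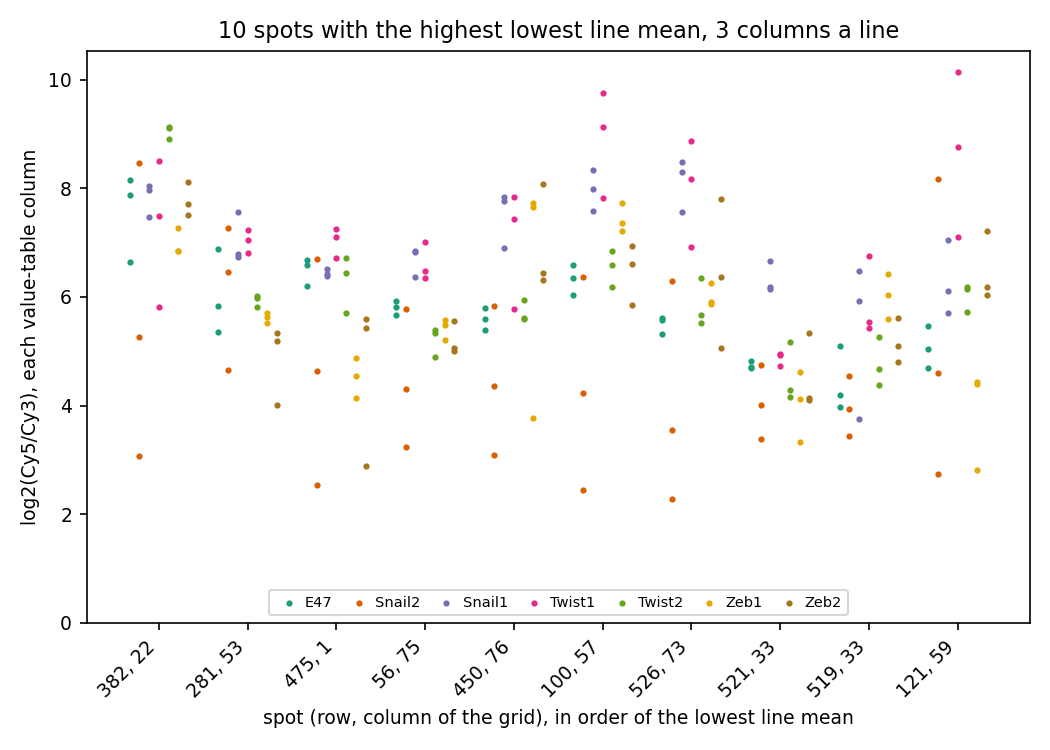
Points are the 21 values of log2(Cy5/Cy3) of each of the 10 spots with the highest lowest line mean, coloured by line. Every value lies above 2, and the 3 values of Snail2 at 121/59 (SD 2.76) and 382/22 (2.71) and of Zeb1 at 450/76 (2.27) are spread most widely.

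In each of these 10 spots the first Snail2 column was the lowest of its line and the third the highest, and the SD of the Snail2 columns reached 2.76 at 121/59. Over all 150 spots, too, the first Snail2 column had the lowest median of any column. In order of rank, Cy3 was well above background at these 10 spots on 2, 2, 14, 5, 7, 8, 6, 6, 2 and 5 of the 15 equal arrays. At 382/22 the mean over these arrays was 7.23 with the deposited ratios and 3.84 after normexp and loess.

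The distance between a spot's highest and lowest line mean was 2.39 at the median of the 150 (1.67 for tested spots) and ran from 0.53 to 7.43. Spot 303/40 had the largest distance. It was the highest of the 150 in both Twist1 (9.32, 9.35 and 9.92) and E47 (7.51, 8.04 and 8.07), and it read 8.52, 7.88 and 7.2 in Twist2, 7.63, 5.37 and 8.28 in Snail1 and 4.59, 6.54 and 8.33 in Snail2. In Zeb1 it read 1.86, 1.93 and 2.52, and in Zeb2 2.74, 3.97 and 4.64. Both Zeb lines lay below the other 5 lines, except that 1 Zeb2 value exceeded 1 Snail2 value.

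Spot 109/4 had the next largest distance, 6.18, with a similar arrangement: Twist1 at 7.76, 8.54 and 8.87, Twist2 at 8.0, 7.56 and 8.0, Snail1 at 7.12, 7.03 and 7.07, and Zeb1 at 2.42, 1.90 and 2.30. Its E47 columns read 6.04, 6.10 and 6.42, its Snail2 columns 4.68, 6.91 and 9.20, and its Zeb2 columns 4.18, 3.67 and 5.00. Here too Zeb1 was apart from every other line. Spot 404/7, the highest of the 150 in Snail2 (7.79, 7.11 and 6.21), was lowest in Snail1 (3.54, 3.78 and 0.85).

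At the other end, 27/21 had the smallest distance between lines, 0.53. Its line means ran from 2.03 ± 0.68 in Zeb2 (2.60, 2.22 and 1.27) to 2.56 ± 0.36 in Twist2 (2.16, 2.63 and 2.88), and these overlapped. Spot 71/30 had a distance of 0.67, from 2.51 ± 0.30 in Snail2 to 3.18 ± 0.27 in E47, but the Snail2 columns (2.22, 2.49 and 2.81) did not overlap the E47 columns (3.31, 2.87 and 3.36). Cy5 at 71/30 was saturated on 3 arrays, where the ratio is a lower limit. Neither spot was near the top of the ranking, where 27/21 was number 118 and 71/30 number 70.

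Some of the 150 spots may hold the same target. Spots 118/37, 329/54, 251/20, 180/28 and 186/43 each lay within 0.3 (log2) of another of these 5 in all 21 columns, and any pair of them differed by at most 0.45. Their lowest line mean was 2.91 to 3.04 and their highest 5.12 to 5.43. Spots 29/74 and 71/30 differed by at most 0.21 in any column. At this tolerance, chosen after the values were seen, no other spots of the 150 formed such a set, and each set is best counted as 1 observation.

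In the control channel most of the 150 spots were dim. Over the 15 arrays that equalled a column, the scanner software marked Cy3 as well above background at 36.5% to 78.4% of the 148 spots, with a median of 49.3%, compared with 68.9% to 82.5% and a median of 76.9% for all tested spots. Cy5 was well above background at 90.5% to 100% of them (median 99.3%). The median Cy3 signal of the 148 spots was 54.8 to 136 scanner units over the arrays, with a median of 66.5, and the local background around them was 17.0 to 23.8. The median Cy5 signal was 138 to 1510, with a median of 518. A raw signal above its local background was therefore not enough for the software's mark. By another rule, a median Cy3 signal under 2 times the local background, only 1 of the 148 spots was near background. Spots without the software's mark had a median Cy3 signal of 44 to 52 on these arrays. This rule could therefore hardly mark any spot, and nothing is read from its count.

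The array of the first Snail2 column had both the highest share of control spots above background (78.4%) and the lowest median gain (2.67). On all 4 arrays of its slide the share was above the rest, at 60.8% to 78.4%. The part of this difference in the low Snail2 values was not tested.

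**Figure D4:**
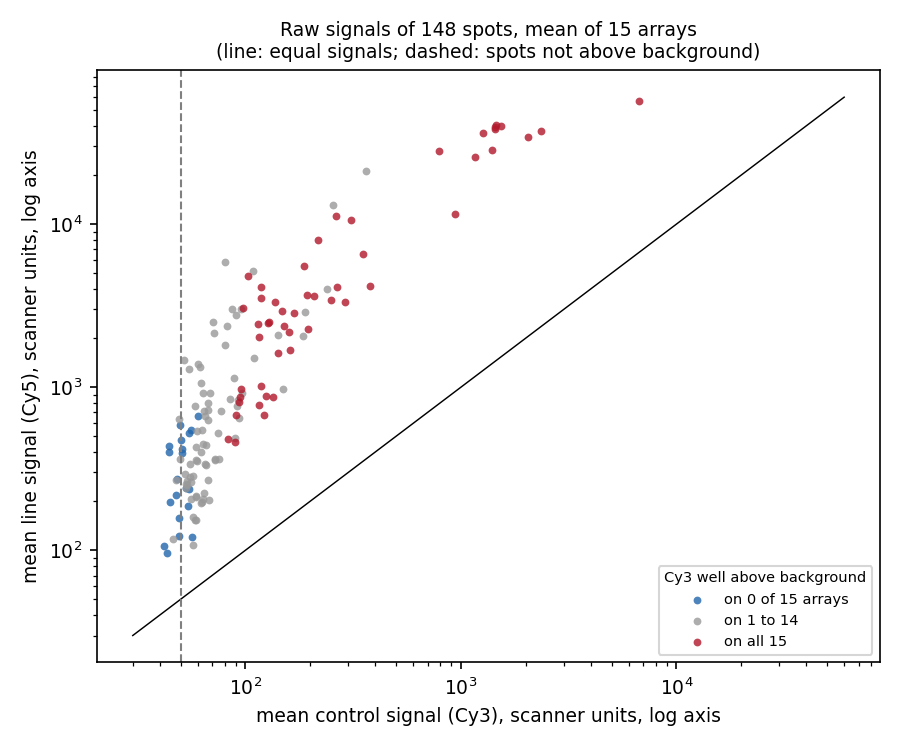
Each point is 1 of the 148 spots, at its mean Cy3 signal (x axis) and mean Cy5 signal (y axis) over 15 arrays in scanner units, both on log axes, coloured by the number of arrays on which Cy3 was well above background. All points lie above the line of equal signals, and the 20 spots whose Cy3 was well above background on none of the arrays lie beside the dashed line, the typical Cy3 signal of spots not above background.

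The spots fell into 3 groups by control signal. Cy3 was well above background on none of the 15 arrays for 20 spots (13.5% of 148, 6.11% of tested spots), on 1 to 14 arrays for 78 spots (52.7%, tested 32%) and on all 15 for 50 spots (33.8%, tested 61.9%). Median raw signals in the first group were 49.9 for control and 257 for the line, in the second 64.7 and 543, and in the third 164 and 3384. The deposited ratios ran the other way from the signals: the median log2 ratio over the 15 arrays was 4.40 in the first group, 3.99 in the second and 3.27 in the third. After normexp with an offset and loess, in place of the software's subtraction and dye normalisation, the medians were 1.33, 1.70 and 2.74. The order of the groups thus turned, and the group measured in both channels moved least. Which of these steps turned it was not tested.

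Those 50 spots had control signals well above background wherever they could be read. Their median line means were 3.64 in Twist2, 3.52 in Twist1, 3.30 in E47, 3.16 in Zeb2, 2.98 in Snail2, 2.87 in Zeb1 and 2.81 in Snail1. The distance between the lines was smaller there than over all 150 spots, and Twist2 rather than Twist1 was highest. The brightest control signals belonged to 126/5, with a mean of 6729, to 71/30, with 2342, and to 29/74, with 2046, against line signals of 56808, 37152 and 34088. At 126/5 the ratio was 1.95 to 2.93 in 6 lines and 1.79 ± 0.54 in Zeb1 (2.13, 1.17 and 2.08).

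The dimmest control signals belonged to 477/64, with a mean of 42.0 and a range of 35 to 47, to 110/15, with 43.1, and to 70/12, with 44.5, and none was well above background on any of the 15 arrays. Their mean line signals were 106, 96.6 and 197. At 477/64 the deposited log2 ratios nevertheless ran from 2.47 ± 0.65 in E47 to 3.58 ± 0.76 in Snail2. The mean over the 15 arrays was 3.02 for the deposited ratio of this spot and 0.74 after background correction with an offset and loess.

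Where Cy3 was not well above background on any array of a line, only a lower bound of the gain can be given. It sets the line's signal against the dimmest signals that counted as above background, or the spot's own control signal where that was higher. Bounds that came out at 1-fold or less were left out, so the counts and medians below cover only bounds above 1-fold. In Twist1, 72 of the 148 spots had such a bound, with a median of at least 2.76-fold and a highest bound of at least 58.9-fold, at 100/57. In Twist2 there were 69, with a median of at least 3.50-fold, and in E47 57, with at least 3.07-fold. Zeb1 had 75 such spots and Zeb2, from 1 array, 76, both with a median of at least 2.03-fold, and Snail2 had 27, with at least 1.91-fold. At 382/22 the bound was at least 14.3-fold in E47, 12.6-fold in Twist1, 21.5-fold in Twist2, 11.4-fold in Zeb1 and 21.5-fold in Zeb2. At 303/40 it was at least 33-fold in Twist1 and at least 1.34-fold in Zeb1. No Snail1 column had scanner signals, so no bound is given for it.

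With background correction and loess on the same 15 arrays, the gain was smaller in each of the 6 lines that had one. The median of the 148 spots was 2.37 in Twist2 (4.12 with the deposited ratios of the same arrays), 2.19 in Twist1 (4.59), 2.12 in Snail2 (3.34), 1.98 in E47 (3.66), 1.52 in Zeb2 (2.92) and 1.46 in Zeb1 (2.94). The limma fit called 131 of 148 spots higher in Twist2 (11.8% of tested spots), 128 in Snail2 (11.4%), 125 in E47 (12.5%), 125 in Twist1 (7.79%), 103 in Zeb1 (1.98%) and 90 in Zeb2 (3.08%, 1 array, assumed to vary like the others). These are the same arrays as those that chose the spots, so the counts again describe.

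At high signals the other end of the scale was reached. Cy5 was saturated on 3 or more of the arrays in 7 of the 148 spots (1.42% of tested spots), and for these the ratio is a lower limit on such arrays. Spot 126/5 was saturated on 13 of 15 arrays, 329/54 on 6, 251/20, 180/28 and 186/43 on 5 each. The last 4 belong to the set of 5 near-equal spots, which had mean Cy3 signals of 1262 to 1538 and mean Cy5 signals of 36204 to 40474.

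The ratios of the 5 arrays that equal no column were not used in the choice, although the marks of their spots as above background entered the filter. Whether their RNA differs from that of the columns is unknown, since they are recorded under Snail1 and Zeb2 samples that also have columns, and they share the kind of control and the dyes. Their likeness went across the recorded lines. Snail1 arrays 1 and 2 and Zeb2 array 2 correlated across tested spots at 0.96, 0.94 and 0.93, whereas Snail1 array 3 correlated with them at -0.13 to -0.12 and with Zeb2 array 3 at 0.53. Of the table's columns, Snail1 arrays 1 and 2 were nearest to the first E47 column (r = 0.799 and 0.795). Zeb2 array 2 was nearest to the third E47 column (0.779). Snail1 array 3 was nearest to the first Snail1 column (0.685) and Zeb2 array 3 to the second (0.728). These columns entered the choice of spots. The recorded lines of these arrays are therefore doubtful, and each array is given alone. On Zeb2 array 3, 148 of 148 spots were above 0 in the deposited log2 ratio (47.5% of tested spots), with a median of 3.43. On Snail1 array 3, 145 were above 0 (49.2%), with a median of 2.66. On Snail1 arrays 1 and 2 it was 111 each (50.9% and 50.8%), with medians of 1.44 and 1.5, and on Zeb2 array 2 it was 110 (51.1%), with 1.54.

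Above 1 on the log2 scale were 146 spots on Zeb2 array 3 (11.2% of tested spots), 136 on Snail1 array 3 (10.3%), 92 on Snail1 array 1 (27.5%), 90 on Snail1 array 2 (27.7%) and 90 on Zeb2 array 2 (26.4%). On all 5 arrays 103 of the 148 spots were above 0, compared with 12.8% of tested spots, and 68 were above 1, compared with 1.11%. Of the 57 spots with Cy3 well above background on all 5 arrays, 39 were above 0 on all 5, and of the other 91 spots, 64 were.

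**Figure D5:**
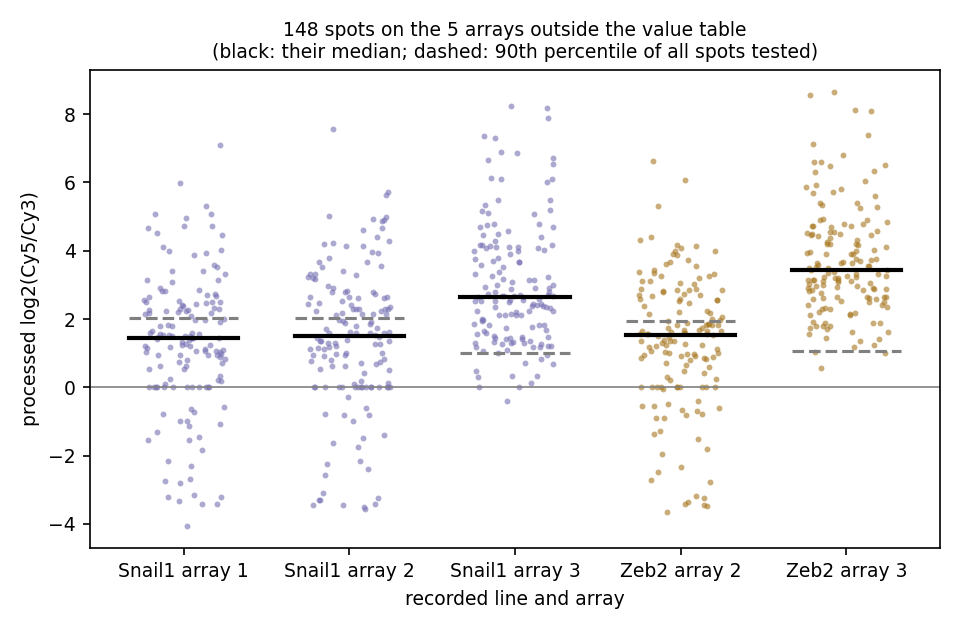
Each point is the deposited log2(Cy5/Cy3) of 1 of the 148 spots on 1 of the 5 arrays that equal no table column, labelled by recorded line, with black bars at their median and dashed bars at the 90th percentile of all tested spots. Medians are 2.66 and 3.43 on Snail1 array 3 and Zeb2 array 3 and 1.44 to 1.54 on the other arrays, where values reach below -3.

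Fitted by recorded line after normexp and loess, no spot of the 148 was called higher in Snail1 or in Zeb2, and none of the tested spots was (limma with Benjamini-Hochberg adjustment, 0%). Over the planned settings the counts ran from 0 to 26 in Snail1 (0 to 603 among tested spots) and from 0 to 2 in Zeb2 (0 to 72). The 2 calls in Zeb2 came from a fit over all 21 arrays. There Zeb2 also held array 1, which equals a column used in the choice. The smallest adjusted p of the 148 was 0.676 in Snail1 (limma, 3 arrays) and 0.472 in Zeb2 (limma, 2 arrays). At an unadjusted p under 0.05, 20 of the 148 were higher in Snail1 (2.91% of tested spots) and 66 in Zeb2 (6.27%). The median log2 mean was 0.62 in Snail1 and 1.45 in Zeb2. These values rest on normexp fitted on all spots, which failed on Snail1 array 1. Fitted without spots below their local background, it gave medians of 0.78 and 1.46, still no calls, smallest adjusted p of 0.185 and 0.297 (limma), and 55 (5.62% of tested spots) and 73 (6.36%) of the 148 higher at an unadjusted p under 0.05. A fit over all 21 arrays with normexp fitted this way, added after the data were seen, called 40 of 148 in Snail1 and 74 in Zeb2. Among tested spots it called 1130 and 603, and its Zeb2 again held array 1.

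With 1 mean over the 5 arrays in place of the recorded lines, an analysis added after the data were seen, 26 of the 148 spots were called higher (1.1% of tested spots), and the median log2 mean was 1.01, compared with 0.01 for tested spots. It was 2.08 with the deposited ratios, and 77 spots were then called, among 892 called of the 30183 tested spots. The 5 arrays are not 5 independent conditions, since 3 of them were nearly alike. After normexp and loess the count was 0 without Snail1 array 1, Snail1 array 2 or Zeb2 array 2. It was 18 without Zeb2 array 3 (143 among tested spots) and 42 without Snail1 array 3 (2038 among tested spots). At an unadjusted p under 0.05, 94 of the 148 were higher (17% of tested spots).

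Among the 26, the highest mean was that of 281/53, the second spot of the ranking, at 2.88 ± 0.54 (SE, limma adjusted p = 0.0486). The SE and adjusted p of this and the next spots treat the 5 arrays as independent, although 3 were nearly alike. The values of 281/53 after loess were 1.88, 1.95 and 3.32 on Snail1 arrays 1 to 3 and 2.02 and 5.21 on Zeb2 arrays 2 and 3. Spot 228/58 followed with 2.72 ± 0.49 (limma adjusted p = 0.0457), from 3.23, 3.62, 0.68, 3.86 and 2.22 in the same order. At this spot the 3 alike arrays were higher than the others, whereas at 281/53 they were lower. Cy3 was well above background on 2 of the 5 arrays at 281/53 and on 0 of them at 228/58, so these ratios rest largely on a control near background.

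Spots 257/36 (2.66 ± 0.25, limma adjusted p = 0.0182) and 19/46 (2.38 ± 0.25, limma adjusted p = 0.0182) lay between 1.90 and 3.49 on each of the 5 arrays. Spot 114/70 had 2.42 ± 0.32 (limma adjusted p = 0.026). Cy3 was well above background on all 5 arrays at 257/36, on 3 at 19/46 and on 2 at 114/70. In the table these 5 spots had lowest line means of 4.85, 3.18, 2.86, 2.86 and 3.54. The first spot of the ranking, 382/22, was not among them. Its deposited log2 ratio was 7.29 on Snail1 array 3 and 8.56 on Zeb2 array 3, but it was listed at 0.00 on the other 3 arrays.

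On Snail1 arrays 1 and 2 and Zeb2 array 2, 32 of the 148 spots were at or below 0 on all 3, a group chosen after the values were seen. Their medians on these arrays were -1.20, -1.24 and -0.90, and on Snail1 array 3 and Zeb2 array 3 they were 3.26 and 4.48. In the Snail1 columns of the table the same 32 spots had a median of 5.12, compared with 3.24 for the other 116. Cy5 was well above background at 43.8%, 43.8% and 50% of the 32 on the 3 alike arrays, and at 88.8%, 88.8% and 94.0% of the other 116. Cy3 was well above background there at 56.25%, 59.4% and 59.4% of the 32, and at 40.5%, 34.5% and 62.1% of the other 116. Of the 15 arrays that equal a column, Cy3 was well above background on a median of 15 for the 32 and 5.5 for the other 116. The 5 near-equal spots belonged to this group, with ratios of -3.56 to -3.15 on the 3 alike arrays, 4.0 to 4.14 on Snail1 array 3 and 4.46 to 4.55 on Zeb2 array 3.

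Spots lowered in all lines, chosen in the same way from the other end, were bright in the control and often dim in the line. Their highest line mean ran from -6.94 to -1.41, with a median of -2.35, close in size to the median of 2.46 for the raised spots. On the median array their control signal was well above background at 100% of the spots and their line signal at 58.0%, compared with 49.3% and 99.3% for the raised spots.

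The raised spots were spread over the array. Of the 148, 70 (47.3%) lay in the first 266 grid rows, against 49.5% of tested spots, and 68 (45.9%) on the left side of the grid, against 49.4%. Divided into 4 equal bands from top to bottom, the grid held 35, 35, 34 and 44 of them. The outermost 10 rows or 5 columns held 18 (12.2%, tested 14%), and 5 spots lay next to another of the 148.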

How the data were processed

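The 21 scanner files come from Agilent Feature Extraction 10.7.1.1 per the file headers, or 10.0 per the submitters' processing notes. Median intensity was used per the file headers, for a spot and for the background around it, in Cy3 and in Cy5. The deposited log10 ratio of the same files is that of processed Cy5 over processed Cy3 signal, after the scanner software's background subtraction and dye normalisation. The deposited value table holds log10 ratios in 21 columns. The sources used here do not say whether it was centred further. Its values were multiplied by log2 of 10.

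Control spots (1417 an array) were left out. Outlier-marked spots were left out of the loess values and of the fits on scanner arrays. They stayed in the table's columns, the counts of deposited ratios, the channel signals and the lower bounds. Line means were fitted with limma 3.58.1 in R 4.3.3 (lmFit and eBayes, 1 variance shared by all lines) over 30183 tested spots, against 0, so that spread among control cultures does not enter. For scanner signals, normexp with an offset of 50 and loess were used. Fitted on all spots, normexp failed on 7 arrays, where it turned a net signal of 50 into over 100 and at most 650. After at most 27 spots per channel with signals below their local background were left out, it gave at most 48.5. This second form, chosen after seeing the data, was used for the 15 equal arrays, the lower bounds and the mean over 5 arrays. The lower bounds compare means of normalised channel signals (loess, then Aquantile) and are open to dye bias, since no dyes were swapped. The scripts were tested on simulated data.

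Spots were named by rule: the first 10, the 3 on each side of the limit, the highest in each line, the 2 with the smallest and the 2 with the largest difference between lines, the 3 with the lowest and highest control signal, up to 5 saturated on 3 or more arrays, and the 5 highest of those called over the 5 arrays. The rule gave the recorded lines for the last, which had no calls. The 32 spots at or below 0, the near-equal sets, the columns that stand apart and the 2 spots holding another spot's ratio were added after their values were seen. The spots and the rules were chosen with earlier results of these data known. Alternatives covered the filter, scaling, weights, background correction, blocks, and leaving out each array or line.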

Additional observations from a re-analysis of the deposited data

How the results depend on the processing

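The 150 spots depended on the line with the smallest gain and on the choice of samples. Leaving out 1 column kept 140 to 150 of them, and leaving out 1 line kept 108 (without Zeb1) to 148. Line medians in place of means kept 134, no filter 148, a filter on all 21 files 94, and the recorded samples of the scanner files 77. In the columns, calls of the 150 stayed within 1.5 times the main count except on scanner arrays, but the choice had put that count at or near its limit. Over all tested spots, scaling raised the calls in Snail1 (1896 to 4448) and Zeb1 (1556 to 4180). It lowered them in the other lines, as in E47 (7829 to 4901). By recorded sample with normexp on all spots, Snail1 had 1, Zeb1 5 and Zeb2 2 calls of 148, with 165, 54 and 72 among tested spots. With normexp fitted without spots below local background they had 40, 74 and 74, with 1130, 380 and 603 among tested spots. On the 15 equal arrays Zeb2 had 90, with 922 among tested spots. With 1 column left out, calls ran from 150 to 150 in E47, 144 to 150 in Snail1, 149 to 150 in Snail2, 148 to 150 in Twist1, 149 to 150 in Twist2, 141 to 150 in Zeb1 and 147 to 150 in Zeb2. The fit over all 21 arrays by recorded line gave 1 call in Snail1 and 2 in Zeb2. Its Zeb2 also held array 1, which equals the first Zeb1 column and so entered the choice. For the 5 arrays by recorded line, array weights gave 1 call in Snail1 (396 among tested spots), and leaving out 1 array gave 0 to 0. The mean over the 5 arrays gave 77 calls with the deposited ratios (892 among tested spots) and 0 to 42 with 1 array left out (0 to 2038 among tested spots). The causes were not tested. With the replicate number as a block, calls in the columns were the same, with 149 in Snail1, but for the 5 arrays Snail1 had 26 calls in place of 0 (603 among tested spots). Same-numbered columns of different lines deviated together at r = -0.25 to 0.29, with 12 of 63 pairs over 0.1 and a median of 0.006. Columns with other numbers did so at r = -0.34 to 0.33, with 18 of 126 pairs over 0.1 and a median of 0.008. By the median, then, a shared number did not pair columns. Among the 5 arrays only 2 numbers are shared, at r = 0.84 and 0.80, again across recorded lines that are in doubt. Precision is limited by 3 arrays a line, and for 98 of 148 spots by a control signal not above background on at least 1 array.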
